A study of Homo sapiens with 9 samples.

Results

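The PRAMEF genes form a tandem family on chromosome 1 that is named for its likeness to PRAME, a tumour antigen. Their RNA was followed in HEK293, a human cell line made from embryonic kidney, 72 h after the cells had been transfected. All 3 groups were the same line and differed in the plasmid: the empty PCMV expression vector, a plasmid for Aire, or a plasmid for MBD-VP16. Each group held 3 one-colour arrays labelled as biological replicates, but no label says whether they came from separate cultures, so p-values cover only array-to-array spread, which may be technical. The species and extent of the Aire and MBD inserts and the share of cells transfected are not stated either, and each value is a mean over transfected and untransfected cells. The family was chosen by gene symbol: every transcript cluster (a probe set covering a transcript region) with any symbol starting with PRAMEF. This found 28 of the 25679 clusters with values, and they carry 22 PRAMEF symbols. The family was put forward with earlier results of these data known, so its MBD-VP16 differences are a description and carry no p-value.

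Several clusters hold the same values on all 9 arrays. Counted once, the 28 clusters gave 21 distinct readings, of which 6 stand for 13 clusters. The gene copies are so alike that 23 of the clusters carry several PRAMEF symbols and 26 are annotated as open to cross-hybridisation, against 10.6% of all clusters. The clusters for PRAMEF12 and PRAMEF2 are the 2 that are not. Readings therefore share probes and targets, are not replicates of each other, and mostly cannot be tied to 1 gene. They are called below by the numbers of their genes, with a letter where several readings carry the same set.

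PRAME family proteins are built of leucine-rich repeats, and PRAME and some relatives act as substrate receptors of ubiquitin ligases built on cullin 2 (CUL2). PRAME is known to repress signalling by the retinoic acid receptor. In the mouse, the relative Pramel7 promotes loss of the DNA methylation factor UHRF1 in early embryos. Human PRAMEF genes are transcribed in the cleavage-stage embryo, where the homeobox factor DUX4 is a known activator of several of them, and are silent in most adult tissues outside the germ line. Aire is a transcriptional regulator of thymic epithelial cells that drives expression of tissue-restricted genes. VP16 is a viral protein whose activation domain is often fused to DNA-binding domains.

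The promoter windows below show the start regions of genes whose symbols stand on large, middle and small readings. Whether their sequence bears on the size of a difference was not tested. Windows run from 250 bases before to 50 bases after the annotated start and were taken from RefSeq on GRCh38.p14, where 16 of the 22 symbols matched and gave 17 windows, since PRAMEF1 has 2. Capitals mark 2 runs of letters found by comparing the windows after the array values had been seen, a 17-base run and, nearer the start, a 10-base run, and in PRAMEF7 the DUX4 motif in place of the first. PRAMEF2 (chr1:12856836-12857135, plus strand) and PRAMEF12 (chr1:12773488-12773787, plus strand) are the genes whose clusters are not marked as open to cross-hybridisation.
PRAMEF2: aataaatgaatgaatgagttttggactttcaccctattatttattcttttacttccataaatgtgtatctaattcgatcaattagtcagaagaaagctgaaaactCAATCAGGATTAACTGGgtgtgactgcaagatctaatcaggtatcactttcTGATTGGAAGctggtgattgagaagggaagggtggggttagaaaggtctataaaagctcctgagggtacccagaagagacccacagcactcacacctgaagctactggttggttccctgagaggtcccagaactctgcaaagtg
PRAMEF12: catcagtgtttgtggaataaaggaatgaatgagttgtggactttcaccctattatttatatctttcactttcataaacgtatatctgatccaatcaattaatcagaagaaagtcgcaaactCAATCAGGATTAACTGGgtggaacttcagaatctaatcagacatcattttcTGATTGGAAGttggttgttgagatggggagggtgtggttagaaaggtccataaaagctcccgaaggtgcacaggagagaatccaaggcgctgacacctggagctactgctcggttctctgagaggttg
PRAMEF5 (chr1:13253948-13254247, plus strand) stands for the group with genes 4, 5, 6, 9, 11 and 15, whose readings are among the highest.
PRAMEF5: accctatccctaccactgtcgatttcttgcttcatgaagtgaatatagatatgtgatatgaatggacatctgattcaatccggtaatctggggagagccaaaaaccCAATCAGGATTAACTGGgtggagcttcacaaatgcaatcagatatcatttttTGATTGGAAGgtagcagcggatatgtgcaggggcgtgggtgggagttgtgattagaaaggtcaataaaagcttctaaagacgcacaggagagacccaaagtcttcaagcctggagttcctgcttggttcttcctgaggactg
PRAMEF7 (chr1:12916360-12916659, plus strand) holds the 10-base run and the DUX4 motif.
PRAMEF7: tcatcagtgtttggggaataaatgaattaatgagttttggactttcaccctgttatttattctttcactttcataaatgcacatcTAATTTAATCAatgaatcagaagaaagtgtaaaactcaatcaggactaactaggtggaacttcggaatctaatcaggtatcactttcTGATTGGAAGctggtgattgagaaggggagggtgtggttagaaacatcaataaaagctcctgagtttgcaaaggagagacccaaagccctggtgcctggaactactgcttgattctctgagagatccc
PRAMEF18 (chr1:13226105-13226404, minus strand) holds neither run, and its symbol stands on the reading with the smallest difference and on 1 other.
PRAMEF18: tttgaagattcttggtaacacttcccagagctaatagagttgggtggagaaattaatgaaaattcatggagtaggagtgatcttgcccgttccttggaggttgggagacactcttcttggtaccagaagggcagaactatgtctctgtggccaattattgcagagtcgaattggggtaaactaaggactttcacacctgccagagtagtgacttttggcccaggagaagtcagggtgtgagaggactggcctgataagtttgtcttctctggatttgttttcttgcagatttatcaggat
For PRAMEF10 (chr1:12898316-12898405, minus strand) and PRAMEF20 (chr1:13410338-13410427, plus strand), the 90 bases around the 10-base run follow, since both genes had readings of middle size.
PRAMEF10: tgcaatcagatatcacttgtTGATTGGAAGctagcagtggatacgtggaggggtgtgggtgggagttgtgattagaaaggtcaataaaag
PRAMEF20: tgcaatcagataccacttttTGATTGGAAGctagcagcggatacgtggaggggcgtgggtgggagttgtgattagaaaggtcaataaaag
Last are the same 90 bases of HNRNPCL1 (chr1:12848795-12848884, minus strand) and HNRNPCL2 (chr1:13116893-13116982, minus strand), genes of another kind that lie inside the PRAMEF locus.
HNRNPCL1: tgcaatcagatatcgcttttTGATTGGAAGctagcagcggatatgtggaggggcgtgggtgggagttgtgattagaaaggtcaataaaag
HNRNPCL2: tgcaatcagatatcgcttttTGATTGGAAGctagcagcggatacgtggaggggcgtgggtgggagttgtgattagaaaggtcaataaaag

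Array medians were 6.11 to 6.23 and no 2 arrays were identical. The cluster named MBD1 was at 8.19 ± 0.55 (SD, n = 3) with vector and 9.96 ± 0.14 (SD, n = 3) with MBD-VP16, a rise of 1.78 (limma adjusted p = 0.00295), while AIRE was at 6.43 ± 0.10 (SD, n = 3) with vector and 6.66 ± 0.10 (SD, n = 3) with Aire, which did not pass (limma adjusted p = 0.213). The AIRE cluster was higher in 3 of 3 Aire arrays than in any vector array, but by 0.23 log2 units. Which part of either insert the probes cover was not tested. The mean of 6 HEK293 markers was 8.65 to 8.74 across the arrays, and of these KRT18 fell with Aire (limma adjusted p = 0.0338) and with MBD-VP16 (limma adjusted p = 0.0131), in a cluster open to cross-hybridisation that the deposited table places on chromosome 13. Of 9 markers of blood, liver, fibroblast, endothelial and islet cells, 7 were measured, none passed in any comparison, and their mean was 4.75 to 4.90.

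On the deposited log2 scale, single vector arrays read 2.82 to 6.08 over the 21 PRAMEF readings. The median of the 21 readings was 4.08, 4.36 and 4.29 on the vector arrays, 4.61, 4.31 and 4.40 on the Aire arrays, and 6.78, 7.20 and 6.57 on the MBD-VP16 arrays. In bulk RNA, more cells with PRAMEF RNA and more RNA per cell cannot be told apart.

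**Figure D1:**
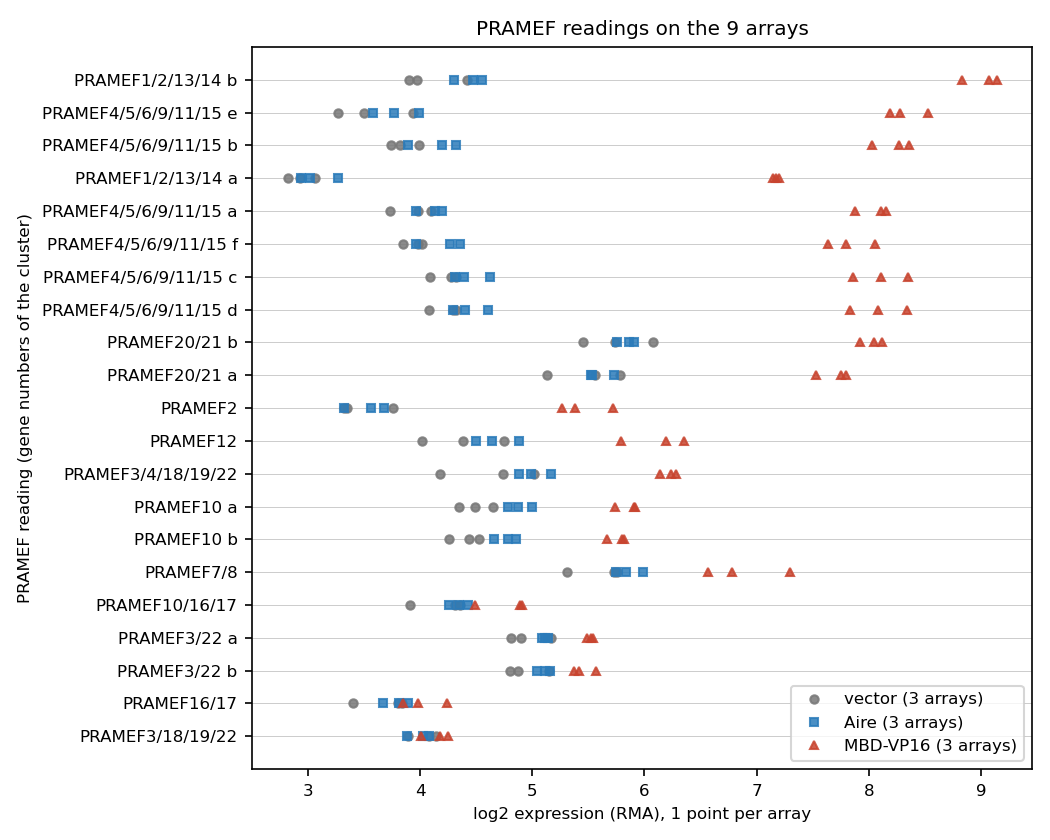
Log2 expression (RMA) of each of the 21 PRAMEF readings (rows, ordered by MBD-VP16 minus vector) on each of the 9 arrays (1 point per array). In 19 readings all MBD-VP16 points lie to the right of every vector and Aire point, while vector and Aire points lie close together. Over all clusters, MBD-VP16 arrays lay above all vector arrays in 13.2% and above all Aire arrays in 8.41%.

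The readings fell into steps by the size of MBD-VP16 minus vector. There were 8 readings with a difference of at least 3 log2 units (lowest 3.85), 8 from 1.28 to 2.27, and 5 under 1 (highest 0.57). A difference of at least 1 was thus seen in 16 of 21 readings, against 1.02% of all clusters. Among all clusters ranked by this difference, 10 readings were in the top 100 and 2 in the top 20, the best at rank 16. The standard errors of these differences were 0.0913 to 0.202, and the standard deviations within a group were 0.0252 to 0.428.

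The readings shared by PRAMEF1, PRAMEF2, PRAMEF13 and PRAMEF14 were among the 8 with the widest difference. The PRAMEF1/2/13/14 b reading was 3.97, 4.42 and 3.90 on the vector arrays, 4.55, 4.30 and 4.47 on the Aire arrays, and 8.83, 9.07 and 9.14 on the MBD-VP16 arrays. Every MBD-VP16 array thus stood more than 4 log2 units above every vector and Aire array, and the difference from vector of 4.92 ± 0.15 (SE, n = 3 per group), a 30.2-fold higher level, was the largest in the family. The PRAMEF1/2/13/14 a reading was 2.93, 3.06 and 2.82 with vector, 3.27, 3.02 and 2.94 with Aire, and 7.15, 7.20 and 7.17 with MBD-VP16. Its difference was 4.24 ± 0.10 (SE), 18.9-fold, and again no array with MBD-VP16 came near the other 6.

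PRAMEF2 also has a cluster with its symbol alone, 1 of the 2 clusters not annotated as open to cross-hybridisation. PRAMEF2 is reported to act as a receptor of a CUL2 ligase on the Hippo pathway kinase LATS1. It read 3.32, 3.76 and 3.35 with vector, 3.56, 3.68 and 3.32 with Aire, and 5.72, 5.38 and 5.27 with MBD-VP16. Groups with and without MBD-VP16 did not overlap, while vector and Aire did. The difference was 1.98 ± 0.16 (SE), or 3.94-fold, smaller than in both shared readings that also carry the PRAMEF2 symbol, whose probes also match PRAMEF1, PRAMEF13 and PRAMEF14.

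PRAMEF12, which in the mouse is needed for spermatogenesis, is the other gene with a cluster not open to cross-hybridisation. Its values were 4.02, 4.38 and 4.75 with vector, 4.64, 4.88 and 4.50 with Aire, and 5.79, 6.35 and 6.19 with MBD-VP16. The 3 MBD-VP16 arrays lay above the other 6 of this cluster, and vector and Aire overlapped. The difference from vector was 1.73 ± 0.20 (SE), 3.31-fold, with the widest standard error of the family.

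The 6 readings of PRAMEF4, PRAMEF5, PRAMEF6, PRAMEF9, PRAMEF11 and PRAMEF15, which stand for 8 clusters, were 14.5-fold to 27.2-fold higher with MBD-VP16 than with vector. The widest, reading e, was 3.27, 3.94 and 3.50 with vector, 3.99, 3.58 and 3.77 with Aire, and 8.28, 8.53 and 8.19 with MBD-VP16, a difference of 4.76 ± 0.18 (SE). The narrowest, reading d, was 4.08, 4.32 and 4.29 with vector, 4.61, 4.29 and 4.40 with Aire, and 8.34, 8.08 and 7.83 with MBD-VP16, a difference of 3.85 ± 0.14 (SE). In all 6 readings, every MBD-VP16 array (7.64 to 8.53) lay above every Aire array (3.58 to 4.62) and vector array (3.27 to 4.32).

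PRAMEF20 and PRAMEF21 shared 2 readings, at the top of the middle step. PRAMEF20/21 b read 5.45, 5.74 and 6.08 with vector, 5.91, 5.86 and 5.76 with Aire, and 8.05, 8.12 and 7.92 with MBD-VP16. The MBD-VP16 arrays stood apart and the Aire arrays lay inside the vector range. The differences from vector were 2.20 ± 0.16 (SE) and 2.27 ± 0.14 (SE), or 4.61-fold and 4.83-fold.

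PRAMEF10 had 2 readings, with differences of 1.36 ± 0.10 (SE) and 1.35 ± 0.09 (SE), close to 2.57-fold and 2.56-fold. Reading a was 4.35, 4.49 and 4.65 with vector, 5.0, 4.78 and 4.87 with Aire, and 5.74, 5.92 and 5.91 with MBD-VP16. Here the 3 groups formed an order without overlap, vector lowest, Aire next and MBD-VP16 highest. Aire arrays lay above vector arrays without overlap in 12.3% of all clusters. PRAMEF7/8, 1 reading that stands for 3 clusters, was 5.31, 5.73 and 5.76 with vector, 5.75, 5.84 and 5.99 with Aire, and 6.78, 7.30 and 6.57 with MBD-VP16. Its difference of 1.28 ± 0.19 (SE), 2.43-fold, was the smallest of the readings above 1.

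The symbols PRAMEF3, PRAMEF18, PRAMEF19 and PRAMEF22 stood on readings of unlike size. The PRAMEF3/4/18/19/22 reading, which also carries PRAMEF4, was 4.18, 5.02 and 4.74 with vector, 4.88, 4.99 and 5.17 with Aire, and 6.28, 6.24 and 6.14 with MBD-VP16, a difference of 1.57 ± 0.19 (SE). Without PRAMEF4, the PRAMEF3/18/19/22 reading was 4.08, 4.14 and 3.89 with vector, 3.88, 4.03 and 4.08 with Aire, and 4.18, 4.01 and 4.25 with MBD-VP16. In it all 3 groups overlapped, and the difference of 0.11 ± 0.10 (SE) was the smallest in the family. The PRAMEF3/22 readings lay between, at 0.56 ± 0.09 (SE) and 0.51 ± 0.10 (SE).

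PRAMEF16 and PRAMEF17 were at the low end too. The PRAMEF16/17 reading was 3.40, 3.80 and 3.84 with vector, 3.89, 3.81 and 3.67 with Aire, and 3.98, 4.24 and 3.85 with MBD-VP16, a difference of 0.34 ± 0.14 (SE). Its MBD-VP16 arrays lay above the vector arrays but not above all Aire arrays. The PRAMEF10/16/17 reading was 3.91, 4.36 and 4.31 with vector, 4.43, 4.35 and 4.26 with Aire, and 4.89, 4.91 and 4.49 with MBD-VP16, a difference of 0.57 ± 0.15 (SE).

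In the order of MBD-VP16 minus vector, 9 of the 20 gaps between neighbouring readings were smaller than the larger of the pair's standard errors, among them those between PRAMEF10 a and b, between PRAMEF20/21 a and b and between PRAMEF4/5/6/9/11/15 c, d and f. The widest gaps were 1.58 log2 units, between PRAMEF4/5/6/9/11/15 d and PRAMEF20/21 b, and 0.71, between PRAMEF7/8 and PRAMEF10/16/17. The order is of differences, since levels of separate probe sets are not comparable. Sizes of differences can also vary with the probe set, so the order is of readings and not of genes.

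**Figure D2:**
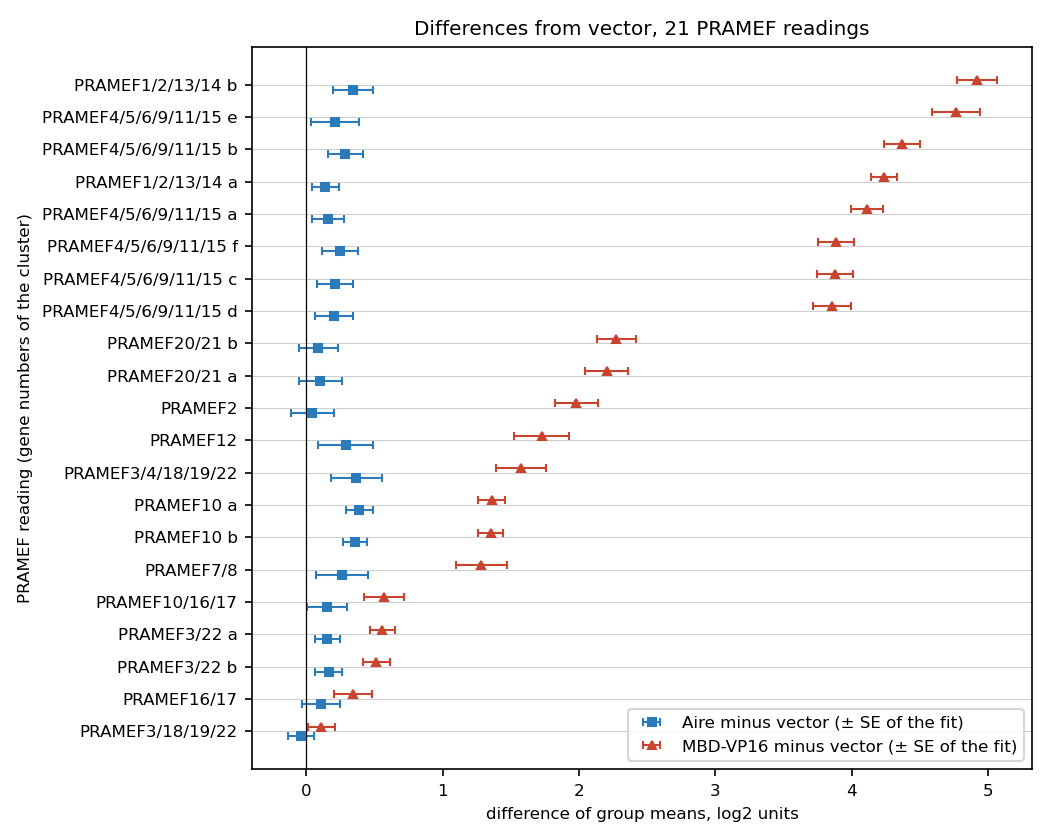
Differences from vector in log2 units (x axis) for the 21 readings (rows), squares for Aire and triangles for MBD-VP16, with bars of 1 standard error of the fit over 3 arrays per group. The MBD-VP16 differences run from 0.11 to 4.92 and the Aire differences from -0.04 to 0.39, with the same vector arrays under both.

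A limma fit over all clusters, adjusted by Benjamini-Hochberg, called 19 of the 21 readings higher with MBD-VP16 than with vector, against 4.75% of all clusters called higher. Since the family was proposed from this contrast, nothing is read from that count. All 3 MBD-VP16 arrays were above all 3 vector arrays in 20 readings, against 13.2% of all clusters. The 21 differences had a median of 1.98, and those of all clusters a median of 0.00. In the authors' deposited table, the false discovery rate passed the same threshold for 19 readings.

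Aire was compared with vector to ask whether it moves the family too, on the same 3 vector arrays as the MBD-VP16 comparison. None of the 21 readings passed the adjusted threshold of 0.05 in the limma fit, in which 4.40% of all clusters did, and 3 of 21 had an unadjusted p under 0.05, against 20.2% of all clusters, so that share was not above the background. The authors' deposited false discovery rates called 0 as well. The differences ran from -0.04 to 0.39 log2 units (0.97-fold to 1.31-fold), with a median of 0.20 against 0.03 over all clusters, and 20 of 21 were above 0, as were 55.8% of all clusters. The groups were apart, Aire higher, in 2 readings against 12.3% of all clusters, both of them PRAMEF10, so that share was not above the background either. For PRAMEF10 the differences were 0.39 ± 0.10 (SE; limma adjusted p = 0.0642) and 0.36 ± 0.09 (SE; limma adjusted p = 0.0648), higher in 3 of 3 Aire arrays than in any vector array. The PRAMEF10/16/17 reading, which also carries the symbol, differed by 0.15 ± 0.15 (SE; limma adjusted p = 0.609).

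Vector replicate 1 was the lowest vector array in 18 of 21 readings, as it was in 39.9% of all clusters. Without that array, 16 of the 21 Aire differences were above 0 and their median was 0.11. Without vector replicate 3, PRAMEF10 a passed the threshold, at a difference of 0.46 (limma adjusted p = 0.0473). When any other array was left out, no PRAMEF reading passed.

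MBD-VP16 was also set against Aire directly. This comparison uses the same MBD-VP16 arrays, so it is a description too. Of the 21 readings 16 were called higher, against 1.80% of all clusters, and in 19 the groups were apart, against 8.41%. The differences ran from 0.15 to 4.57 with a median of 1.94, against -0.02 over all clusters. False discovery rates in the authors' deposited table called 16. The readings not called were the 5 with differences from vector under 1.

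The 28 clusters lie within 912.8 kb of chromosome 1 (chr1:12834984-13747803 in the deposited table, on a build that no header or label names). Readings of all 3 steps were interspersed along the locus rather than ordered by position. Of the 4 other clusters inside the span, HNRNPCL1 and HNRNPCL2, relatives of the RNA-binding protein hnRNP C, rose with MBD-VP16. HNRNPCL1 read 3.57, 3.20 and 3.26 with vector and 5.08, 4.90 and 5.15 with MBD-VP16, a difference of 1.70 ± 0.12 (SE; limma adjusted p = 3.44e-05). HNRNPCL2 read 4.18, 4.28 and 4.10 with vector and 5.37, 4.81 and 5.13 with MBD-VP16, a difference of 0.92 ± 0.15 (SE; limma adjusted p = 0.00718). With Aire they differed from vector by 0.26 and 0.27, with limma adjusted p = 0.254 and limma adjusted p = 0.369. The other 2 clusters repeat 1 reading of a short transcript with a difference of 0.34 (limma adjusted p = 0.152).

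Outside the span, differences overlapped in range with the smaller ones inside it. The 10 clusters before it had a median of -0.07 and a range of -0.40 to 0.93, and the 10 after it a median of 0.09 and a range of -0.25 to 0.50. DHRS3, a retinaldehyde reductase induced by retinoic acid, rose by 0.93 ± 0.10 (SE; limma adjusted p = 0.000652), and also with Aire, by 0.52 ± 0.10 (SE; limma adjusted p = 0.0237). A small nucleolar RNA cluster (SNORA59A and SNORA59B) rose by 0.45 with MBD-VP16 (limma adjusted p = 0.0401). None of the other 18 flanking clusters passed the threshold. Called higher were thus 2 of the 10 before the span and 0 of the 10 after it, against 4.75% of all clusters.

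**Figure D3:**
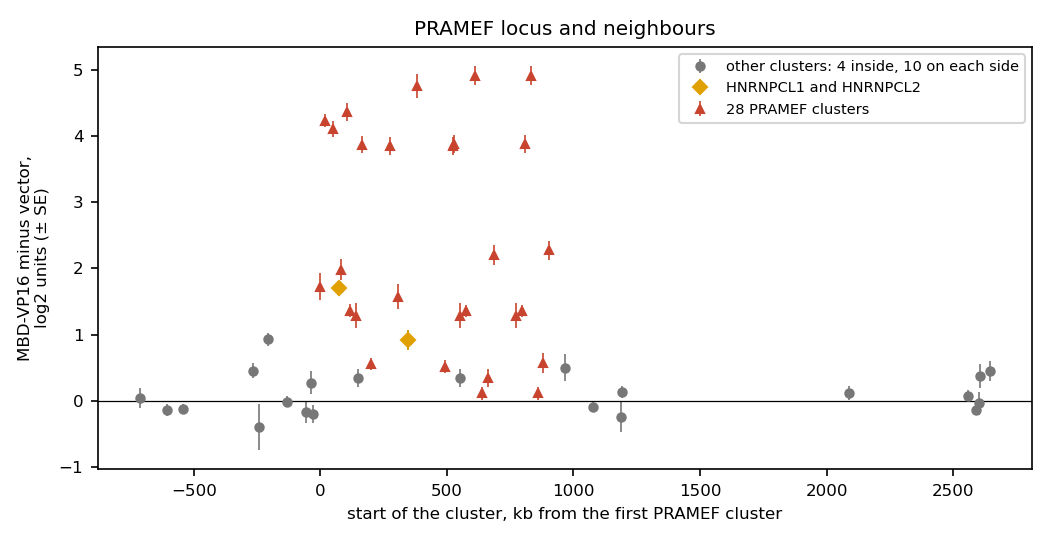
MBD-VP16 minus vector in log2 units (y axis, bars of 1 standard error) by distance in kb from the first PRAMEF cluster (x axis), for the 28 PRAMEF clusters (triangles, repeated readings drawn at each place), HNRNPCL1 and HNRNPCL2 (diamonds) and the other neighbours (circles). PRAMEF clusters from 0.11 to 4.92 alternate within the locus, and the 20 flanking clusters stay between -0.40 and 0.93.

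The promoter windows shown at the start were then set beside the readings, a comparison made after the values were known. The 10-base run TGATTGGAAG was the longest stretch present in 14 of the 17 windows, and 0.148% of all 35116 RefSeq windows hold it on either strand. It is absent from PRAMEF17, PRAMEF18 and the second PRAMEF1 window. The 17-base run CAATCAGGATTAACTGG is in 12 of the 17 windows, missing also from PRAMEF7 and PRAMEF8, and in 0.04% of all windows, where the other holders are PRAMEF26 and PRAMEF33. PRAMEF17 and PRAMEF18, whose windows hold neither run, are symbols on the readings that differed least, 0.34 and 0.11. Windows are placed by the annotated start, and whether transcription of PRAMEF17 and PRAMEF18 begins there was not tested. PRAMEF17 also stands on the shared reading at 0.57 and PRAMEF18 on the one at 1.57. The second PRAMEF1 window holds neither run as well, and PRAMEF1 stands on the shared readings at 4.24 and 4.92, though its first window holds both runs. The PRAMEF3/22 readings, at 0.56 and 0.51, carry symbols that have no window. PRAMEF7 and PRAMEF8, with the 10-base run only, share the reading at 1.28. Windows that hold both runs belong to symbols on readings from 0.57 to 4.92. PRAMEF10 stands on readings at 1.36, 1.35 and 0.57, PRAMEF12 on 1.73 and PRAMEF20 on 2.20 and 2.27. PRAMEF2 stands on its own reading at 1.98 and on the shared ones at 4.24 and 4.92, and PRAMEF4 on the shared reading at 1.57 and on those from 3.85 to 4.76.

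Within the windows, PRAMEF1, PRAMEF2, PRAMEF13 and PRAMEF14 were 87.0% to 98.0% identical after global alignment (first PRAMEF1 window), and PRAMEF4, PRAMEF5, PRAMEF6, PRAMEF11 and PRAMEF15 were 79.3% to 96.0% identical. Between these sets identity was 60.2% to 66.2%, although both had differences above 3.85 in their readings. PRAMEF12 was 76.0% to 82.8% identical to the PRAMEF1 set. PRAMEF10 was 79.6% to 91.0%, and PRAMEF20 79.3% to 93.7%, identical to the PRAMEF4 set, while the differences of their readings were smaller. Those readings use other probes, and size varies with the probe set even for 1 symbol. PRAMEF2 was at 1.98 on its own reading and at 4.24 and 4.92 on shared ones. Sizes of readings are therefore not sizes of single genes. PRAMEF17 and PRAMEF18 were 47.6% to 53.2% identical to the windows with the run and 65.6% to each other.

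**Figure D4:**
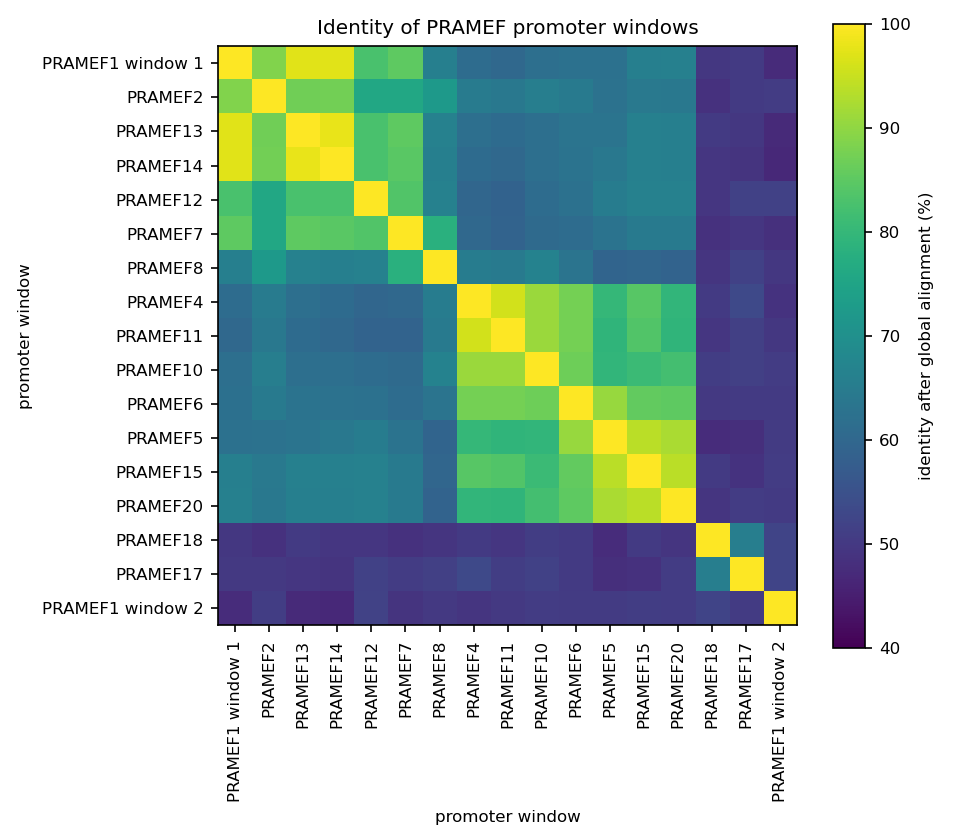
Percent identity after global alignment between the 17 PRAMEF promoter windows (both axes), from 40% to 100% by colour. The PRAMEF1 set (87.0% to 98.0%) and the PRAMEF4 set (79.3% to 96.0%) form separate bright blocks, and PRAMEF17, PRAMEF18 and the second PRAMEF1 window stand apart.

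Motifs were searched on both strands. The DUX4 motif TAANNNAATCA was in 2 of the 17 windows, at -165 in PRAMEF7 and -202 in PRAMEF8, against 0.888% of all windows. GGATTA lies inside the 17-base run, which fixes its count of 12 of 17, against 6.36%. TAATCA, which can overlap the DUX4 motif, was in 14 of 17 against 7.65%. CCAAT, which the 10-base run holds on its other strand, was in 17 of 17 against 34.6%. The string ATAAAA was in 14 of 17 against 16%. TATAAA, which can overlap it, was in 4 of 17 against 11.5%. These are matches of letters, not sites. The PRAMEF windows are up to 98.0% identical to each other, so a motif in several of them is not a separate occurrence in each. The windows held 0 to 5 CpG dinucleotides, with a median of 3, against a median of 14 over all windows, of which 33.7% hold 5 or fewer. Their GC content was 39.3% to 49.0%, against a median of 58.7% over all windows.

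**Figure D5:**
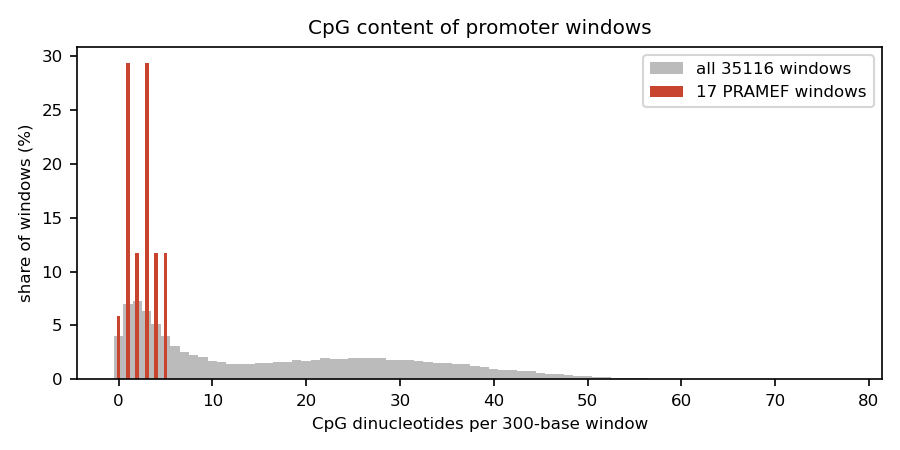
Share of windows (y axis, percent) by CpG dinucleotides per 300-base window (x axis), grey for all 35116 RefSeq promoter windows and red for the 17 PRAMEF windows. All PRAMEF windows hold 5 or fewer, at the low end of the range over all windows.

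HNRNPCL1 and HNRNPCL2 hold the 10-base run but not the 17-base run. The HNRNPCL2 window was 88.4% identical to that of PRAMEF6, and the HNRNPCL1 window 75.7% identical to that of PRAMEF4, so the start regions of these neighbours resemble those of PRAMEF genes although they code for another kind of protein. Outside the PRAMEF family, 35 genes hold the run and 23 of them were measured. Leaving aside the HNRNPCL genes, the other 21 differed by -0.22 to 0.56 between MBD-VP16 and vector, with a median of 0.15. Of these, LAPTM4A rose by 0.31 (limma adjusted p = 0.0174) and REEP6 by 0.56 (limma adjusted p = 0.00711), and 0 fell. The 2 of 21 stand beside 4.75% of all clusters called higher.

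The genes with the pattern most like PRAMEF1/2/13/14 b were found by the root mean square difference over the 9 arrays, each gene taken relative to its vector mean, among 21786 clusters. The 5 nearest were RFPL4B (0.28 log2 units), the epidermal differentiation factor ZNF750 (0.74), the neurofilament heavy chain NEFH (1.01), the homeobox gene TPRX1 (1.03) and the cyclin CCNA1 (1.14). RFPL4B, a relative of the Ret finger protein, read 3.11, 2.93 and 3.27 with vector, 3.23, 3.59 and 3.53 with Aire, and 7.83, 7.83 and 7.87 with MBD-VP16. Its MBD-VP16 arrays stood as far apart from the rest as those of the leading PRAMEF reading. Within the family the nearest reading was PRAMEF4/5/6/9/11/15 e, at 0.18.

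Because DUX4 activates PRAMEF genes in the embryo, a list of 26 other DUX4 target and cleavage-stage genes was examined, chosen with earlier results of these data known. Of 14 measured, 13 rose with MBD-VP16 by limma and 0 fell, against 4.75% of all clusters called higher and 5.14% called lower. The median difference was 2.38 against 0.00 over all clusters. With a list so chosen, nothing is read from that count, and the MBD-VP16 values below are a description. CCNA1, a cyclin of meiosis in the male germ line, was higher by 3.02 ± 0.13 (SE; limma adjusted p = 8.38e-07). TPRX1 was higher by 3.27 ± 0.20 (SE; limma adjusted p = 1.43e-05), and ZSCAN4, a zinc finger protein of the cleavage-stage embryo, by 2.83 ± 0.18 (SE; limma adjusted p = 1.65e-05). RFPL2, named after its values were seen, was the 1 that did not pass (0.42, limma adjusted p = 0.131). Aire raised 0 of the 14 while RFPL4A fell by 2.62 on the log2 scale (limma adjusted p = 3.24e-06), in a cluster open to cross-hybridisation.

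DUX4 itself had no cluster of its own. Its 12 clusters with several symbols gave 7 readings that lay between 6.97 and 7.58 on all 9 arrays, with MBD-VP16 minus vector from -0.13 to 0.08. None passed the limma threshold and 0 passed at an unadjusted p under 0.05. These clusters were looked up after the values of the list were known, and they are shared among many copies.

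PRAME and its relatives LRRC14 and LRRC14B were not called higher with MBD-VP16. The difference of PRAME lay within the range of the smallest PRAMEF readings. Its MBD-VP16 arrays lay above its vector arrays, as in 13.2% of all clusters. PRAME read 7.07, 7.01 and 6.85 with vector, 7.24, 6.98 and 7.17 with Aire, and 7.19, 7.34 and 7.25 with MBD-VP16, a difference from vector of 0.28 ± 0.09 (SE; limma adjusted p = 0.0888). LRRC14, a leucine-rich repeat relative, fell by 0.43 on the log2 scale (limma adjusted p = 0.0074), and LRRC14B differed by 0.10 (limma adjusted p = 0.657). Neither passed with Aire, nor did PRAME, though LRRC14 differed from vector by -0.30 there (limma adjusted p = 0.0561).

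Genes of the CUL2 ligase, its other substrate receptors and the retinoic acid receptors moved little. Of 15 measured genes of the CUL2 ligase and its substrate receptors, 0 rose and 2 fell with MBD-VP16. These were FEM1A, by -0.39 (limma adjusted p = 0.021), and KLHDC10, by -0.39 (limma adjusted p = 0.0184), both substrate receptors as PRAME itself is. Over all clusters, 5.14% were called lower and 4.75% higher in that comparison. CUL2 itself differed by -0.20 (limma adjusted p = 0.332). The list's median difference was -0.15. Of 5 measured retinoic acid and retinoid X receptors, none passed by limma in MBD-VP16 minus vector. RARA was the 1 with an unadjusted p under 0.05, as 24.8% of all clusters had, at -0.27 (limma adjusted p = 0.0545). None of these 20 genes passed by limma in Aire minus vector, where 6 of 20 had an unadjusted p under 0.05, against 20.2% of all clusters. Among those 6, FEM1A differed by -0.35 (limma adjusted p = 0.0534) and KLHDC10 by -0.28 (limma adjusted p = 0.0932).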

How the data were processed

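RNA of 9 HEK293 samples was hybridised to 9 arrays, 3 per group. The values used are log2 expression as the authors deposited it, with 2 decimals. Per the submitters' processing notes the tool was RMA, which compresses differences of dim probes, and no version is named there. A second deposited table gave symbols, positions, cross-hybridisation marks and the authors' own p-values and false discovery rates, per the file headers; its 9 unlabelled per-array columns were not used. Of 28829 clusters, 3150 without values were left out.

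All 25679 clusters were fitted with limma 3.58.1 (R 4.3.3; lmFit and eBayes, no covariate), with Benjamini-Hochberg adjustment over all clusters and a threshold of 0.05, two-sided; the fit was tested on simulated data. Standard errors are those of the moderated fit. The number of arrays limits the precision. The members and lists were chosen with earlier results of these data known. Named genes were all PRAMEF readings, the 5 clusters with 1 symbol nearest in pattern to the leading reading, up to 4 genes per list by adjusted p, PRAME, AIRE and MBD1; locus neighbours, genes with the shared run and singled-out exceptions were named after values were seen. Of 22 gene identifiers, 19 were in the RefSeq gene table. Windows were aligned with Biopython 1.88.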

Additional observations from a re-analysis of the deposited data

How the results depend on the processing

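Of 894 repeats of single PRAMEF differences, 864 kept their direction and side of the threshold, and none changed the direction of a called difference. The PRAMEF counts of 0 (Aire minus vector), 19 (MBD-VP16 minus vector) and 16 (MBD-VP16 minus Aire) were the same with arrays centred on their medians, with quantile normalization and with an intensity trend. The family was put forward with results of these data known, so the steadiness of its MBD-VP16 counts is a description too. Where dim clusters (mean over all arrays under 6.18) were left out, 2 readings remained, PRAMEF20/21 a and b. Both were called in each MBD-VP16 comparison. Their vector means (5.49 and 5.76) and Aire means (5.59 and 5.84) lay under that cut, and only their MBD-VP16 means (7.69 and 8.03) above it. Staying in thus required high MBD-VP16 values, so this setting cannot test these calls. Without clusters open to cross-hybridisation, 2 of 2 (PRAMEF2 and PRAMEF12) were called in each MBD-VP16 comparison. Fewer readings were tested in both settings. Leaving out 1 array gave 0 to 1, 17 to 19 and 14 to 17 readings; the 1 was PRAMEF10 a without vector replicate 3. The PRAMEF10/16/17 call against vector was lost in most of these, with 2 groups only and with the replicate number as a block. The PRAMEF3/22 b call was lost without MBD-VP16 replicate 1. Against Aire, the PRAMEF7/8 call was lost in 6 repeats and the PRAMEF3/4/18/19/22 call without Aire replicate 2, and PRAMEF3/22 a gained one in 3. Clusters called over the whole table moved more. For Aire minus vector the count of 1131 became 2308 with a trend, 2422 without dim clusters, 597 with the replicate block, 309 with 2 groups only and 287 to 937 without 1 array. For MBD-VP16 minus vector 2539 became 3814 with a trend, 1469 with 2 groups only and 1346 to 2406 without 1 array. For MBD-VP16 minus Aire 482 became 230 without cross-hybridising clusters and 312 to 507 without 1 array. The cause was not tested. Deviations of same-numbered arrays were weakly correlated (r from -0.07 to 0.13, other pairs -0.15 to 0.09), with the highest r between vector 1 and MBD-VP16 1. With 3 arrays per group, these values cannot tell whether the numbers mark shared days or cultures. The replicate block changed no other PRAMEF call. No table gives a background level, and RMA compresses differences of dim probes, so folds from low vector signal are those of the deposited scale.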
